A study of Mus musculus with 14 samples.

Results

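The interleukin-1 (IL-1) ligands Il1a, Il1b and Il18, the antagonist Il1rn and the receptor genes Il1r1, Il1r2 and Il1rap were followed in whole eyes of newborn mice. The mice were wildtype or had a conditional knockout of 1 of 2 chromatin remodelling ATPase genes. Members were the probe sets whose array annotation named 1 of these 7 genes and no other gene. They came to 11 of the 20380 probe sets with a single annotated gene, with 3 probe sets each for Il1rn and Il1rap and 1 for each other gene. Total RNA was hybridised to 14 arrays in 4 groups. The Brg1 experiment held 3 samples labelled Brg1_cKO, a conditional knockout of the SWI/SNF ATPase gene Brg1 (Smarca4), and 3 wildtype samples, all at postnatal day 1 on a mixed background, and neither the Cre line nor the cells that lost Brg1 are named in the labels. The Snf2h experiment held 4 samples with a lens-conditional knockout of the ISWI ATPase gene Snf2h (Smarca5) and 4 wildtype samples, all from newborn C57BL/6 pups, also at postnatal day 1. Knockouts were compared only with the wildtype of their own experiment, since strain and experiment cannot be told apart between the experiments.

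IL-1 alpha and IL-1 beta are inflammatory cytokines that bind the receptor encoded by Il1r1. The bound receptor recruits the accessory chain encoded by Il1rap and signals through Myd88 to NF-kappaB and MAP kinases. Il1rn encodes an antagonist that occupies the receptor without recruiting the accessory chain, and Il1r2 encodes a decoy receptor that binds ligand without signalling. IL-1 beta and IL-18 are made as precursors that caspase-1, activated in inflammasomes, cleaves to their active forms. In the eye, IL-1 is best known from the wounded or infected cornea, where it induces chemokines that attract neutrophils.

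RefSeq start sites of all 7 members were found in the GRCm38.p6 table, with 10 start sites in all. The 250 bases before the start are shown for the genes that carried the results below, Il1b and Il1rn, and for Il1a, the neighbour of Il1b on the same strand of chromosome 2. Capitals mark matches on either strand to 4 motifs that were searched: the TATA box TATAAA, the AP-1 site TGANTCA, the C/EBP core TTNNGNAA and the NF-kappaB consensus. The Il1b window is chr2:129371140-129371389 on the minus strand, and the Il1a window is chr2:129309973-129310222 on the minus strand. The first and second Il1rn start sites have the windows chr2:24336610-24336859 and chr2:24345041-24345290 on the plus strand.
Il1b: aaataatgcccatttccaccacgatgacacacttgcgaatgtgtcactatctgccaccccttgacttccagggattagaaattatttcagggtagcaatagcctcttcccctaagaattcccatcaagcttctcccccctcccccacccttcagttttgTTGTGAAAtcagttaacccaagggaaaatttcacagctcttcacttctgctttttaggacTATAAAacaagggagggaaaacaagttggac
Il1a: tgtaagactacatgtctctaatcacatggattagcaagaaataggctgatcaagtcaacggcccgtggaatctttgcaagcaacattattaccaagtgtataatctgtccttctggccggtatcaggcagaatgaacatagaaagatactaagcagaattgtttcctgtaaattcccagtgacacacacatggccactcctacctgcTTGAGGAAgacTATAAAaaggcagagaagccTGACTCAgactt
Il1rn, first start: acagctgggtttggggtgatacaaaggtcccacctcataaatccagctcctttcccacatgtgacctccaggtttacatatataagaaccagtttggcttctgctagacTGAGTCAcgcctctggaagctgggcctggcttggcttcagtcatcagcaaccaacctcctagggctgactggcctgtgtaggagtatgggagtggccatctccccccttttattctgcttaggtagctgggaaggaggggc
Il1rn, second start: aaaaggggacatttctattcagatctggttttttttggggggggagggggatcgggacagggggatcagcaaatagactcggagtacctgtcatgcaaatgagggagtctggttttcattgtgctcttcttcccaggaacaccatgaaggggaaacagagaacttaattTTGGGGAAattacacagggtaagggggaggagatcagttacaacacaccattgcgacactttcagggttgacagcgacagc

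Il1b and Il1a both had a TATA box close to the start, at 31 to 26 bases before it in Il1b and at 32 to 27 bases before it in Il1a. A C/EBP core lay 91 to 84 bases before the start of Il1b and 43 to 36 bases before that of Il1a. Il1a also held an AP-1 match 12 to 6 bases before its start, and the first Il1rn start held one 141 to 135 bases before it. The second Il1rn start had a C/EBP core at 81 to 74 bases and no TATA box or AP-1 match. The third Il1rn start had 3 C/EBP core matches and no TATA box or AP-1 match. Its window overlaps that of the second start, and its match at 161 to 154 bases is the same stretch as the second start's match. Its matches at 65 to 58 and 64 to 57 bases overlap each other. Among all 32851 start windows of this length, 12.4% held the TATA box, 6.75% the AP-1 motif, 36.8% the C/EBP core and 3.9% the NF-kappaB consensus. The NF-kappaB consensus had 1 match among the 10 member windows, at the second start of Il1r1. These matches describe letters in the windows and are not binding sites shown by these data.

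The arrays had median intensities of 100.8 to 113.6. The targeted transcripts did not pass the test: Smarca4 changed by -0.74 ± 0.30 and 0.05 on the log2 scale at its probe sets in Brg1 cKO eyes (limma adjusted p = 0.579 and 0.972), and the 3 Smarca5 probe sets changed by -0.50, -0.19 and 0.31 in Snf2h cKO eyes (limma adjusted p from 0.188 to 0.711). Lens marker genes, 11 of 14 measured, summed to intensities of 12160 to 38700 in Brg1 cKO eyes and 61590 to 69880 in their wildtype, and to 47290 to 64890 in Snf2h cKO eyes and 49060 to 69240 in theirs. Snf2h cKO replicates 1 and 2 had log2 differences with an SD of 0.217 over probe sets, against 0.419 to 0.723 for the other 17 pairs within groups. The log2 difference between 3' and 5' Gapdh probe sets, a measure of RNA integrity, was 4.47 in Snf2h wildtype replicate 3 and 0.633 to 0.963 in Brg1 cKO, 0.683 to 0.738 in Brg1 wildtype and 0.775 to 0.989 in Snf2h cKO arrays, and the lowest Snf2h wildtype array had 1.09. Changes of Il1r1, Il18 and 1 Il1rap probe set in the Snf2h experiment are therefore also given without that array and with replicates 1 and 2 of the knockout averaged. Gene lists were not repeated in that way. By Gapdh every Snf2h wildtype array lay above every Snf2h cKO array, so leaving out replicate 3 does not even out the groups. By the same measure from Actb the groups overlapped, at 1.44 to 3.08 in Snf2h wildtype and 1.34 to 1.83 in Snf2h cKO arrays. The part of RNA integrity in the Snf2h changes was not tested.

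The question put to the Brg1 experiment was which IL-1 genes differed in eyes with the Brg1 deletion. Il1b and Il1rn rose, by 88.9-fold for the Il1b probe set and by 32.2-fold and 9.03-fold for 2 of the 3 Il1rn probe sets (n = 3 each group). These 3 of 11 member probe sets (27.3%) were called higher at an adjusted p under 0.05, against 0.363% of all 20380 probe sets, and 0 were called lower, against 0.26%. The decoy receptor Il1r2 had a 10.4-fold change that did not pass the test, and Il1a, Il18, Il1r1 and Il1rap had changes of at most 0.83 on the log2 scale. Of the 11 probe sets 6 had an unadjusted p under 0.05, all higher, against 4.44% of all probe sets. All 11 changes were positive, with a median of 0.83, against 49.1% positive and a median of -0.006 over all probe sets. The members were chosen with earlier results of these data known, so these shares are a description.

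**Figure D1:**
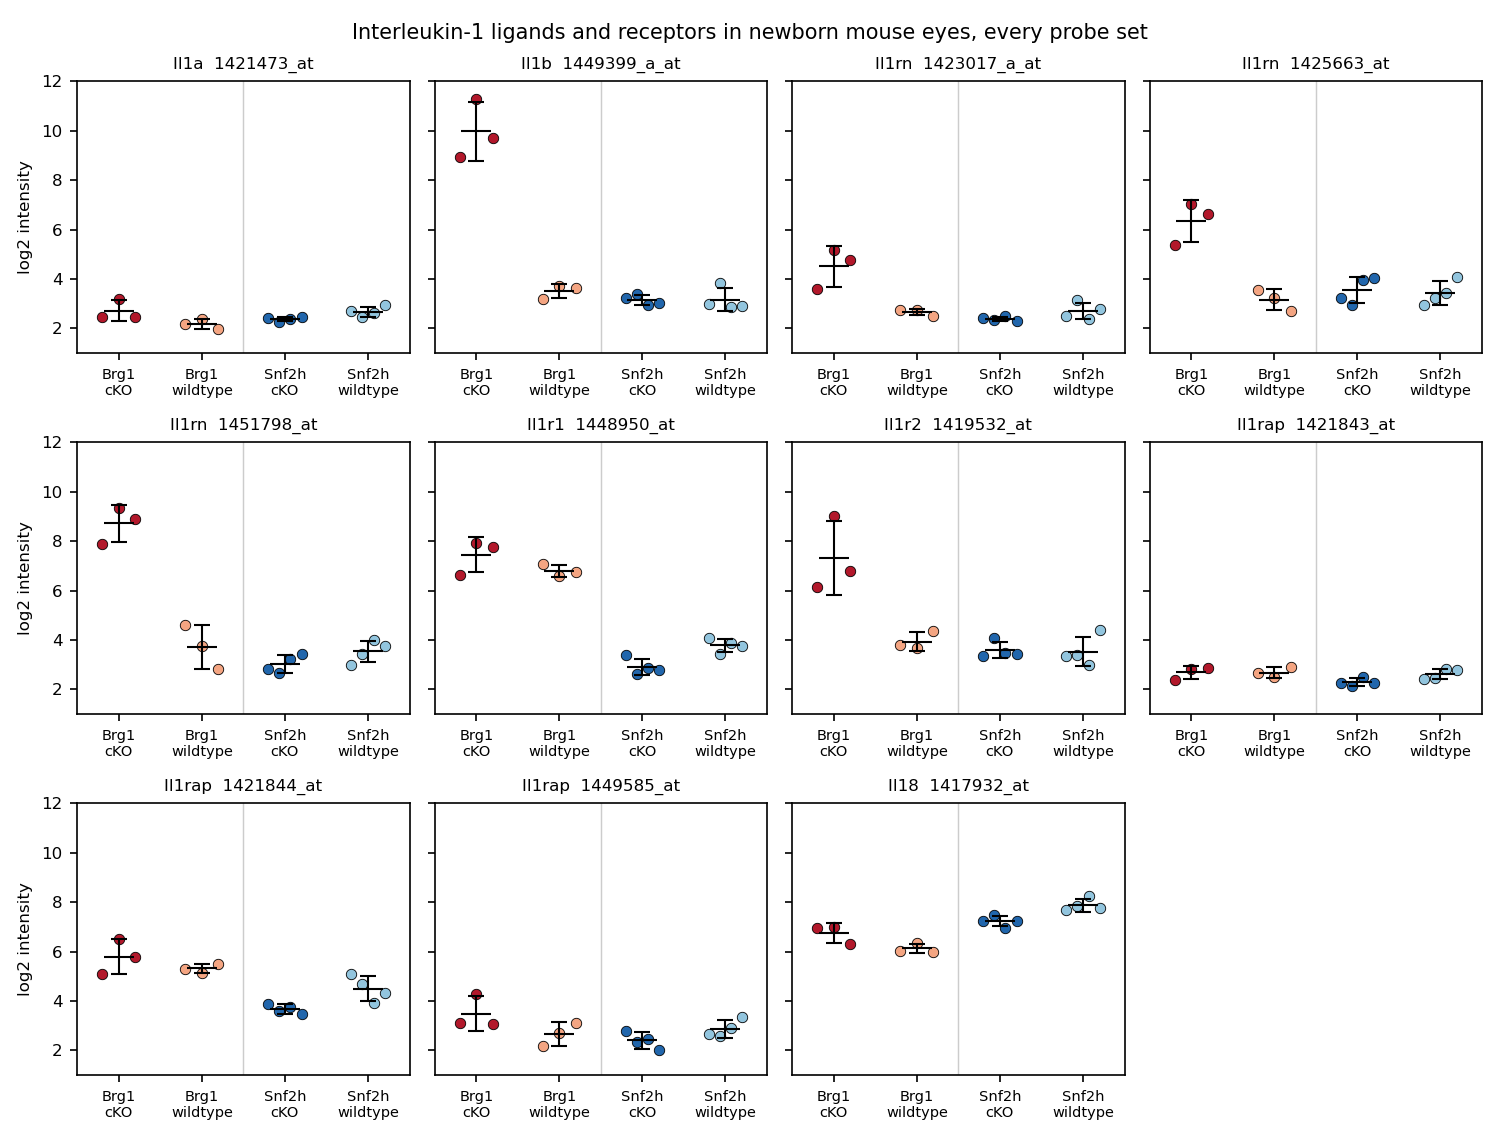
Log2 intensity of every member probe set on each array, in the order Brg1 cKO, Brg1 wildtype, Snf2h cKO and Snf2h wildtype; points are arrays (n = 3, 3, 4 and 4) and bars are the mean ± SD. The Il1b points of Brg1 cKO eyes sit between 8.95 and 11.29, and all other Il1b points between 2.88 and 3.86.

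Il1b, the gene of interleukin-1 beta, had log2 levels of 8.95, 11.29 and 9.73 in Brg1 cKO eyes, against 3.20, 3.71 and 3.64 in wildtype eyes. On the linear scale these were intensities of 495, 2512 and 850.0 in Brg1 cKO eyes, against 9.17, 13.1 and 12.5 in wildtype eyes. Every knockout array lay above every wildtype array, and replicate 2 of the knockout was the highest. The mean was 9.99 ± 1.19 in Brg1 cKO eyes and 3.52 ± 0.28 in wildtype eyes (SD, n = 3 each), a change of 6.47 ± 0.54 (SE) with a 95% interval of 5.21 to 7.74, or 37.1-fold to 213-fold (limma adjusted p = 0.00512). It was the second highest change of all 20380 probe sets. Without any 1 of the 6 arrays the change was 5.82 to 6.995 and stayed called, at limma adjusted p from 0.0010 to 0.0489. The wildtype signal was dim, and no detection calls came with the values; with 32 added to every intensity before the log the change was 4.60 and was no longer called (limma adjusted p = 0.131, the highest over the alternatives, which start at 1.78e-06).

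Il1a, the gene of interleukin-1 alpha, had log2 levels of 2.47, 3.20 and 2.45 in Brg1 cKO eyes and 2.18, 2.36 and 1.98 in wildtype eyes. The knockout arrays lay above the wildtype arrays, but by little at a dim level, and the change of 0.53 ± 0.25 did not pass the test (95% interval -0.04 to 1.11, limma adjusted p = 0.650). Il18, whose product is released in the same way as IL-1 beta but binds its own receptor, had 6.96, 7.01 and 6.30 in Brg1 cKO eyes and 6.04, 6.34 and 5.99 in wildtype eyes. Knockout replicate 3 fell within the wildtype range, so the groups overlapped. The Il18 change of 0.63 ± 0.24 (1.55-fold) was not called (95% interval 0.08 to 1.19, limma adjusted p = 0.529).

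The 3 probe sets of the antagonist gene Il1rn all had knockout arrays above wildtype arrays. Probe set 1451798_at had log2 levels of 7.90, 9.36 and 8.92 in Brg1 cKO eyes and 4.60, 3.75 and 2.81 in wildtype eyes, a change of 5.01 ± 0.52 (95% interval 3.80 to 6.21, limma adjusted p = 0.0114). Probe set 1425663_at, designed on the same source sequence per the array annotation, had 5.37, 7.02 and 6.61 in Brg1 cKO eyes and 3.56, 3.24 and 2.69 in wildtype eyes, a change of 3.18 ± 0.43 (95% interval 2.16 to 4.19, limma adjusted p = 0.0303). Probe set 1423017_a_at had 3.59, 5.16 and 4.78 in Brg1 cKO eyes and 2.74, 2.75 and 2.50 in wildtype eyes, a change of 1.85 ± 0.38, or 3.60-fold, that missed the threshold (95% interval 0.96 to 2.74, limma adjusted p = 0.136). The probe sets therefore shared the direction and differed in size, and in each of them knockout replicate 1 was the lowest of the 3 knockout arrays.

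The Il1rn calls changed when single arrays were left out. The call at 1451798_at was lost without Brg1 cKO replicate 3 (limma adjusted p = 0.0605), without Brg1 wildtype replicate 2 (0.0762) and with 32 added to the intensities (change 3.31, 0.110), within a range of 1.81e-05 to 0.110 over all alternatives. The call at 1425663_at was lost without Brg1 cKO replicate 3 or any 1 wildtype array (limma adjusted p from 0.122 to 0.152) and with 32 added (change 1.49, 0.286, the highest of a range that starts at 0.00101). Probe set 1423017_a_at was called without Brg1 cKO replicate 1 (change 2.31, limma adjusted p = 0.00871) and in 1 fit over all arrays (0.00671), in a range up to 0.474. The count of member probe sets called higher was 1 without Brg1 cKO replicate 3 or without Brg1 wildtype replicate 2, where Il1b remained, and 4 without Brg1 cKO replicate 1 or 2.

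Among the receptor genes, the decoy Il1r2 had the largest change. Its log2 levels were 6.16, 9.01 and 6.79 in Brg1 cKO eyes and 3.78, 3.66 and 4.37 in wildtype eyes, with no overlap and knockout replicate 2 far above the other arrays. The change of 3.38 ± 0.67, or 10.4-fold, was not called (95% interval 1.81 to 4.95, limma adjusted p = 0.117). With 32 added to the intensities it was 2.08 (limma adjusted p = 0.481). Without knockout replicate 2 it was 2.54 and was called (limma adjusted p = 0.0146), and over all alternatives the adjusted p ran from 0.00542 to 0.481.

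The signalling receptor Il1r1 had log2 levels of 6.64, 7.94 and 7.78 in Brg1 cKO eyes and 7.07, 6.59 and 6.74 in wildtype eyes. The groups overlapped, since knockout replicate 1 lay below wildtype replicates 1 and 3, and the change of 0.65 ± 0.35 was not called (95% interval -0.17 to 1.47, limma adjusted p = 0.732). The accessory chain Il1rap was measured by 3 probe sets whose groups all overlapped. At 1421844_at its log2 levels were 5.10, 6.52 and 5.77 in Brg1 cKO eyes and 5.30, 5.15 and 5.50 in wildtype eyes, a change of 0.48 ± 0.34 (limma adjusted p = 0.792). The other Il1rap probe sets changed by 0.83 ± 0.39 at 1449585_at and 0.02 ± 0.21 at 1421843_at (limma adjusted p = 0.656 and 0.987). Both were dim, with mean log2 levels of 3.49 and 2.70 in Brg1 cKO eyes and 2.65 and 2.68 in wildtype eyes. RMA compresses changes at such levels, so these probe sets say little about Il1rap.

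In all, 6 of the 11 member probe sets had every Brg1 cKO array above every wildtype array, against 7.23% of all probe sets, and they belonged to Il1a, Il1b, Il1rn and Il1r2. Replicate 2 was the highest Brg1 cKO array at 10 of the 11 member probe sets, and replicate 1 was the lowest at 8. Sums of leukocyte markers were also highest in replicate 2 and lowest in replicate 1. The 14 of 18 listed neutrophil markers that were measured summed to intensities of 4403, 14000 and 5019 in Brg1 cKO replicates 1, 2 and 3, against 342 to 652.6 in Brg1 wildtype, and the 16 resident macrophage markers summed to 2995, 6103 and 3864, against 1890 to 2806. The neutrophil sum rested mostly on S100a9 and S100a8, at mean log2 levels of 12.06 and 10.78 in Brg1 cKO eyes, with Fpr2 next at 8.58. The mean log2 level of the neutrophil list, in which each marker weighs the same, was 4.98, 6.41 and 5.12, against 3.83 to 4.13. The order, with replicate 2 highest and replicate 1 lowest, was not particular to leukocyte lists. In the same arrays skeletal muscle markers summed to 11280, 30600 and 25390, against 15680 to 26230 in Brg1 wildtype. Surface epithelium markers summed to 8673, 13780 and 12450, against 11330 to 13840. Retina markers ran the other way, at 17890, 9807 and 14360, against 12780 to 14440. Lens markers, at 17660, 38700 and 12160, were highest in replicate 2 but lowest in replicate 3. The part of these tissues and cells in the IL-1 values was not tested, and in RNA of a whole eye fewer cells of a type and less RNA per cell cannot be told apart.

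**Figure D2:**
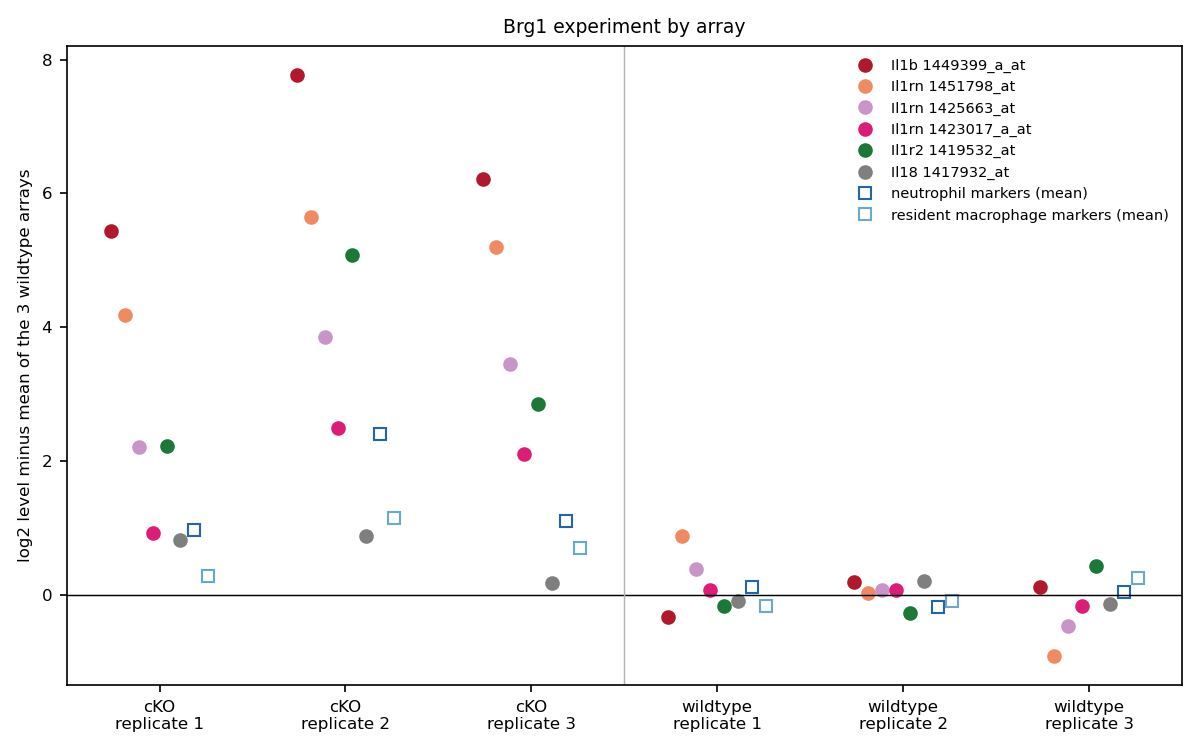
Log2 level of the Brg1 experiment's arrays minus the mean of the 3 wildtype arrays, for Il1b, the 3 Il1rn probe sets, Il1r2 and Il18 (filled circles), and for the mean over the neutrophil and resident macrophage marker lists (open squares). Brg1 cKO replicate 2 was the highest array of Il1b, Il1rn and Il1r2 and of both marker lists.

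Of the 14 neutrophil markers, 3 were called higher in Brg1 cKO eyes, against 0.5% of all 12393 genes when each was taken by its brightest probe set, and 0 were called lower, against 0.355%. They were the formyl peptide receptor gene Fpr2 (35.4-fold, limma adjusted p = 0.00502) and the calprotectin genes S100a9 (22.3-fold, 0.0073) and S100a8 (32.2-fold, 0.0138), and the G-CSF receptor gene Csf3r was 2.98-fold higher without a call (0.242). The granule genes Mmp8, Ngp, Camp, Ltf, Cd177, Elane and Mpo, named after their values were seen, changed by 1.01, 0.96, 0.67, -0.47, -0.04, -0.02 and -0.01 without a call, the last 3 at dim mean log2 levels of 2.65, 2.28 and 2.19 in Brg1 cKO eyes and 2.69, 2.31 and 2.20 in wildtype eyes. No marker was listed at 0. The median change of the neutrophil list was 0.96, with 9 of 14 positive, against a median of 0.02 and 52.8% positive over all genes. The gene lists here and below were chosen with earlier results of these data known, so their shares are a description. Of the 16 macrophage markers, the Fc receptor gene Fcgr1 was called (6.61-fold, limma adjusted p = 0.0183), 14 were positive and the median was 0.46. Of the 16 surface epithelium markers 11 were negative, against 47.2% of all genes, and the median was -0.41. By limma 1 was called higher and 1 lower, against 0.5% and 0.355% of all genes. Krt16, a keratin of wounded epithelium, rose by 6.75 on the log2 scale while Krt12, the keratin of corneal epithelium, fell by 3.70 (limma adjusted p = 0.000267 and 0.000546). Krt6a changed by 1.64 and Krt15 by -3.01 without a call (limma adjusted p = 0.0798 and 0.0910).

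The other ligands and receptors of the IL-1 family, 11 of 15 listed genes measured, had 0 calls by limma in either direction in Brg1 cKO eyes. Over all genes 0.5% were called higher and 0.355% lower, so 0 calls in a list of this length is near that share. Of the 11 genes 3 had an unadjusted p under 0.05, against 9.04% of all genes, and the median change was 0.03. The gene with the smallest p was Il36g, an epithelial IL-1 family cytokine carried under its older symbol on the array, with a mean log2 level of 5.14 ± 0.82 in Brg1 cKO eyes and 2.96 ± 0.27 in wildtype eyes (SD, n = 3 each). All its knockout arrays lay above the wildtype arrays, and the change of 2.19 ± 0.39, or 4.55-fold, missed the threshold (limma adjusted p = 0.0853). It was called without Brg1 cKO replicate 1 (change 2.65, limma adjusted p = 0.00871, in a range of 0.00279 to 0.416). Il18r1, the ligand-binding chain of the IL-18 receptor, was lower at 3.05 ± 0.41 in Brg1 cKO eyes and 4.48 ± 0.31 in wildtype eyes, a change of -1.43 ± 0.26 that was not called (limma adjusted p = 0.0911), and in Snf2h cKO eyes it changed by -1.35 against their own wildtype (limma adjusted p = 0.139). Il18rap, the second chain of that receptor, changed by 0.61, and Sigirr, an inhibitory receptor of the family, by 0.38 (limma adjusted p = 0.582 and 0.620).

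Among the genes that process IL-1 beta and IL-18, 13 of 17 listed were measured, and 2 were called higher and 0 lower, against 0.5% and 0.355% of all genes. Mefv, the gene of the inflammasome protein pyrin, had a mean log2 level of 5.79 ± 0.74 in Brg1 cKO eyes and 2.81 ± 0.09 in wildtype eyes, a 7.93-fold change (limma adjusted p = 0.0161). Casp1, which encodes the protease that cleaves both precursors, had 4.41 ± 0.15 in Brg1 cKO eyes and 3.20 ± 0.17 in wildtype eyes, a 2.31-fold change (limma adjusted p = 0.0359). Casp4, encoding the caspase of the non-canonical inflammasome, changed by 2.10 and the sensor gene Naip2 by 1.46 without a call (limma adjusted p = 0.0955 and 0.407). In 6 of the 13 genes every knockout array lay above every wildtype array, against 8.28% of all genes, and the median change was 0.36. Like the other lists, this list was chosen with earlier results known, so its shares are a description. The Casp1 call was lost whichever of the 6 arrays was left out (limma adjusted p from 0.0549 to 0.191). The Mefv call was lost without Brg1 cKO replicate 3 or any 1 wildtype array (limma adjusted p up to 0.109) and stayed without Brg1 cKO replicate 1 or 2. Mefv and Casp1 were dim in wildtype eyes. Over the other alternatives their log2 changes fell as low as 1.19 and 0.37 (limma adjusted p up to 0.295 and 0.205).

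No signalling gene downstream of the receptor passed the test. Of 32 listed genes 26 were measured, and 0 were called by limma in either direction. Over all genes 0.5% were called higher and 0.355% lower, so 0 calls in a list of this length is near that share. Of the 26 genes 3 had an unadjusted p under 0.05, against 9.04% of all genes. Their median change was 0.03, and 15 were positive, against a median of 0.02 and 52.8% positive over all genes. The smallest p-values were those of the kinase gene Map3k8 (1.03 ± 0.27), the NF-kappaB subunit gene Relb (0.70 ± 0.22), the adaptor gene Myd88 (1.20 ± 0.43) and the ubiquitin ligase gene Peli1 (-0.46 ± 0.21), at limma adjusted p of 0.247, 0.397, 0.505 and 0.643. Signalling of this kind runs through protein modification, which these arrays do not measure.

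Genes known to be induced by IL-1 and NF-kappaB had mostly positive changes. All 37 listed were measured, 35 changes were positive, 22 had an unadjusted p under 0.05 in the positive direction, against 5.36% of all genes, and the median change was 0.94. The list was chosen with earlier results of these data known, so these shares describe it and do not test it. Those called higher were 4, against 0.5% of all genes, and those called lower 0, against 0.355%. The stromelysin gene Mmp3 rose 54.7-fold (limma adjusted p = 0.000537), the acute phase gene Saa3 45.4-fold (0.000648), and the neutrophil chemokine genes Cxcl5 22.7-fold (0.00542) and Cxcl2 80.9-fold (0.0152). Wildtype log2 means were dim for Saa3, Cxcl5 and Cxcl2, at 2.72, 2.39 and 2.58. Over the alternatives their log2 changes fell as low as 3.11, 2.04 and 3.79 (limma adjusted p up to 0.0833, 0.178 and 0.253). The count of induced genes called higher was 1 with 32 added to the intensities and 8 without Brg1 cKO replicate 1. Several of these genes are also expressed by leukocytes. Mmp9 stands in both this list and the neutrophil list, and its change of 0.95 ± 1.20 was not called (limma adjusted p = 0.893). The part of leukocytes in the changes of the induced genes was not tested.

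**Figure D3:**
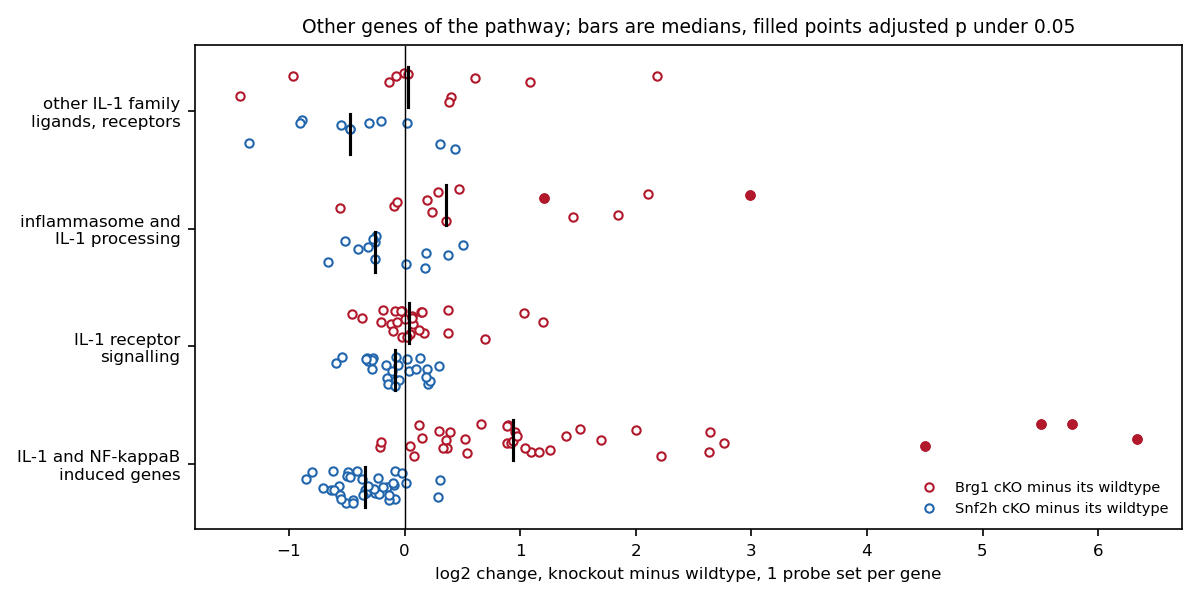
Log2 change, knockout minus its own wildtype, of the measured genes of 4 lists, by 1 probe set per gene, for the Brg1 (n = 3 each) and Snf2h (n = 4 each) experiments; each point is a gene and each bar a list's median. The induced genes have a median of 0.94 in the Brg1 comparison and -0.35 in the Snf2h comparison, and filled points appear in the Brg1 comparison for 2 processing genes and 4 induced genes.

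The genes whose profiles were nearest to those of the called members were found by the root mean square difference over all 14 arrays, each array taken relative to the mean of its own wildtype on the log2 scale. Nearest to Il1b were Slfn4, a schlafen gene (difference 0.417), Cxcl2 (0.595) and the lipopolysaccharide co-receptor gene Cd14 (0.619). Their changes in Brg1 cKO eyes were 77.4-fold, 80.9-fold and 55.9-fold. Nearest to Il1rn at 1451798_at were the C-type lectin gene Clec4d (0.511), Cxcl5 (0.524) and the protease inhibitor gene Slpi (0.539), with changes of 51.6-fold, 22.7-fold and 19.8-fold. These genes were chosen for their likeness, so their changes are a description.

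In the Snf2h experiment the question was the same for the lens-conditional deletion, and no IL-1 gene passed the test in either direction. Of the 11 member probe sets 0 were called higher and 0 lower by limma, against 0% of all 20380 probe sets in each direction, and 3 had an unadjusted p under 0.05, all lower, against 7.58% of all probe sets. Il1b had log2 levels of 3.23, 3.37, 2.96 and 3.01 in Snf2h cKO eyes and 2.97, 3.86, 2.88 and 2.91 in wildtype eyes, with overlapping groups and a change of -0.01 ± 0.23 (95% interval -0.53 to 0.50, limma adjusted p = 0.981). Il1rn at 1451798_at had 2.82, 2.66, 3.21 and 3.45 in Snf2h cKO eyes and 2.998, 3.43, 3.99 and 3.75 in wildtype eyes, a change of -0.51 ± 0.25 (limma adjusted p = 0.314), and its other probe sets changed by -0.31 and 0.12 (limma adjusted p = 0.384 and 0.855). The decoy receptor Il1r2 changed by 0.05 ± 0.29 (95% interval -0.59 to 0.70, limma adjusted p = 0.937) and Il1a by -0.30 ± 0.14 (limma adjusted p = 0.310). The sign of the Il1b change turned to 0.17 and 0.16 under quantile normalisation of all arrays and of each experiment.

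Il1r1, Il1rap at 1421844_at and Il18 had all Snf2h cKO arrays below all wildtype arrays, 3 of 11 member probe sets against 4.17% of all probe sets. Il1r1 had log2 levels of 3.38, 2.60, 2.86 and 2.77 in Snf2h cKO eyes and 4.06, 3.44, 3.89 and 3.75 in wildtype eyes, a change of -0.88 ± 0.20 (1.84-fold lower, 95% interval -1.33 to -0.43, limma adjusted p = 0.111). Il18 had 7.23, 7.49, 6.97 and 7.25 in Snf2h cKO eyes and 7.67, 7.85, 8.25 and 7.75 in wildtype eyes, a change of -0.65 ± 0.17 (1.56-fold lower, 95% interval -1.03 to -0.26, limma adjusted p = 0.141). Il1rap at 1421844_at had 3.89, 3.58, 3.77 and 3.45 in Snf2h cKO eyes and 5.09, 4.68, 3.92 and 4.32 in wildtype eyes, a change of -0.83 ± 0.24 (95% interval -1.36 to -0.29, limma adjusted p = 0.157). None of the 3 passed the threshold, and the intervals of all 3 lay below 0.

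Without Snf2h wildtype replicate 3, the array with the high Gapdh difference, the changes were -0.85 for Il1r1, -0.52 for Il18 and -1.02 for Il1rap (limma adjusted p = 0.178, 0.208 and 0.108). With Snf2h cKO replicates 1 and 2 averaged they were -0.91, -0.69 and -0.85 (limma adjusted p = 0.242, 0.291 and 0.313). With 32 added to the intensities they shrank to -0.21 for Il1r1 and -0.30 for Il1rap, both dim in this experiment, and were -0.55 for Il18 (limma adjusted p = 0.169, 0.209 and 0.120). Array weights alone brought a call, for Il1rap at -0.95 (limma adjusted p = 0.0428, in a range up to 0.364). The changes of 9 of 11 member probe sets were negative with a median of -0.34, against 53.8% negative and a median of -0.03 over all probe sets. Of the 37 induced genes 34 were negative with a median of -0.35, against 56.5% negative and a median of -0.05 over all 12393 genes. Their mean log2 level was 5.053, 4.895, 5.209 and 5.107 in Snf2h wildtype replicates 1 to 4 and 4.583 to 4.821 in Snf2h cKO eyes. Replicate 3, with the high Gapdh difference, was thus the highest wildtype array. The counts for the induced genes were not repeated without it or with the knockout pair averaged. The other Snf2h wildtype arrays also had higher Gapdh differences than the knockout arrays, and the part of RNA integrity in these changes was not tested. By limma 0 of the induced genes were called, against 0% of all genes, and 8 were lower at an unadjusted p under 0.05, against 8.4% of all genes. Neutrophil markers summed to 315.1 to 828.6 in Snf2h cKO eyes and 407.9 to 784.2 in wildtype eyes, and macrophage markers to 3168 to 5170 in Snf2h cKO eyes and 3148 to 5296 in wildtype eyes.

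**Figure D4:**
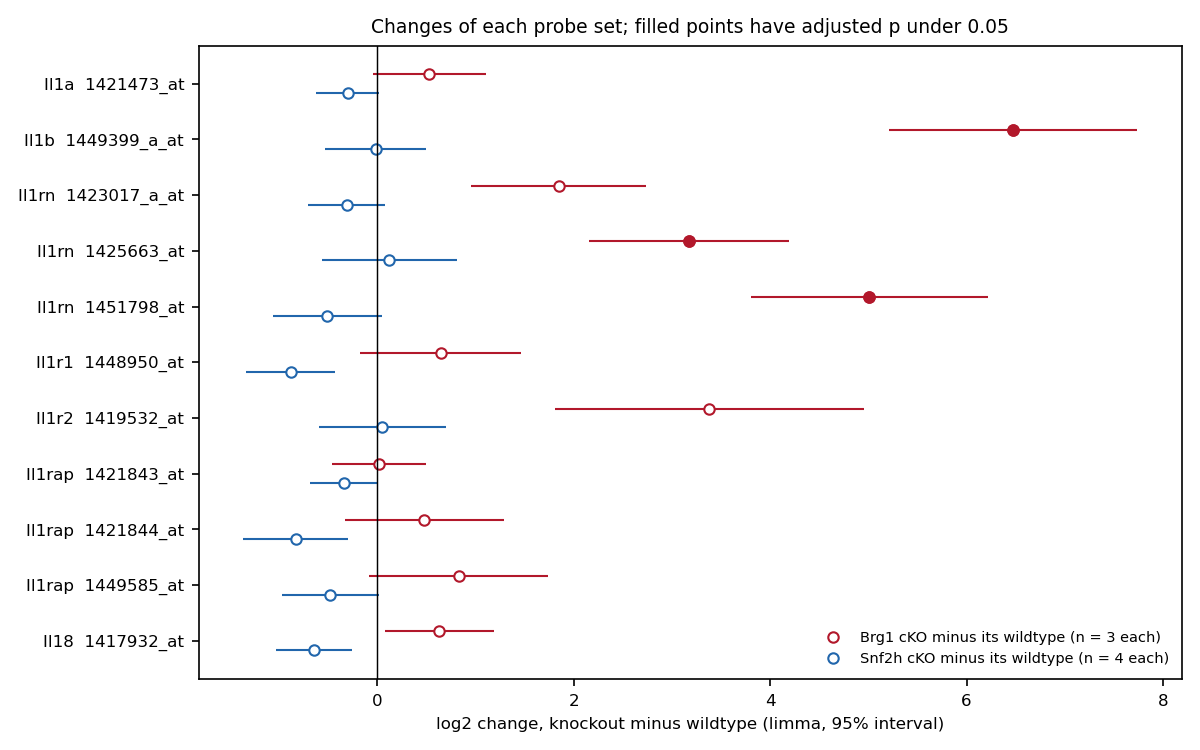
Log2 change of each member probe set, knockout minus its own wildtype, with the limma 95% interval, for the Brg1 (n = 3 each) and Snf2h (n = 4 each) experiments; filled points passed an adjusted p of 0.05. Il1b and 2 Il1rn probe sets are filled in the Brg1 comparison, and the Snf2h changes lie between -0.88 and 0.12.

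The effects of the knockouts were set against each other in 1 fit of all 14 arrays, as the Brg1 change minus the Snf2h change. Il1b and all 3 Il1rn probe sets were called higher, 4 of 11 member probe sets against 0.545% of all probe sets, and 0 were called lower, against 0.142%. The difference was 6.49 ± 0.58 for Il1b (limma adjusted p = 5.15e-05), and for Il1rn it was 5.51 ± 0.57 at 1451798_at, 3.05 ± 0.56 at 1425663_at and 2.16 ± 0.41 at 1423017_a_at (limma adjusted p = 0.000209, 0.0227 and 0.0277). For Il1r2 it was 3.33 ± 0.73 and for Il18 1.28 ± 0.29, and neither passed the threshold (limma adjusted p = 0.0588 and 0.0726). The mean of Il18 was lower in Snf2h cKO and higher in Brg1 cKO eyes than in their wildtypes, without a call in either comparison. Il1r2 was called without any 1 Brg1 cKO array (limma adjusted p = 0.0117, 0.0289 and 0.0448, in a range of 0.0117 to 0.201 over all alternatives) and Il18 without Brg1 cKO replicate 3 (0.0184, range up to 0.206). Il1r1 differed by 1.53 ± 0.41 (limma adjusted p = 0.134) and was called without Brg1 cKO replicate 1 (0.00785, range up to 0.311). The differences of Il1a and Il1rap did not pass, at 0.83 for Il1a and 0.36, 1.31 and 1.31 for Il1rap (limma adjusted p from 0.218 to 0.585).

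The wildtype eyes differed between the experiments for some members. Il1r1 had a mean of 6.80 ± 0.25 (SD, n = 3) in Brg1 wildtype eyes and 3.79 ± 0.26 (SD, n = 4) in Snf2h wildtype eyes, an 8.10-fold difference of the RMA values. The level in Snf2h wildtype eyes was dim, at a mean intensity of 13.96, so the size of this difference is not known exactly. Il18 had 6.13 ± 0.19 in Brg1 wildtype eyes and 7.88 ± 0.26 in Snf2h wildtype eyes, 3.38-fold higher in Snf2h wildtype. Il1rap at 1421844_at was 0.81 higher on the log2 scale in Brg1 wildtype eyes and Il1a 0.50 lower, and these 4 probe sets did not overlap between the wildtype groups, while Il1b, Il1rn, Il1r2 and the other Il1rap probe sets did. Non-overlap was common, at 44.5% of all probe sets. By size the Il1r1 difference ranked 31 of 20380 probe sets, and those of Il18, Il1rap and Il1a ranked 769, 5827 and 9762. Strain, experiment, RNA integrity by the Gapdh difference and any separate processing cannot be told apart. Across the 4 groups the order of Il18 was Snf2h wildtype, Snf2h cKO, Brg1 cKO and Brg1 wildtype from high to low, with overlap between Snf2h cKO and Brg1 cKO and between the Brg1 groups. The order of Il1r1 was Brg1 cKO, Brg1 wildtype, Snf2h wildtype and Snf2h cKO, with overlap between the Brg1 groups alone.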

How the data were processed

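Total RNA of 14 mouse eye samples was measured on Affymetrix arrays after amplification of 50 ng of RNA, per the labels' protocols. The deposited values are probe set intensity on a linear scale, made by RMA per the submitters' processing notes, which give no version. No source used here says whether the experiments were summarised together, and no detection calls came with the values. RMA compresses changes of dim probe sets.

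Log2 intensities were tested with limma 3.58.1 in R 4.3.3 over 20380 probe sets with 1 annotated gene; 64 control probe sets, 691 with several genes and 1555 with none were left out. Each knockout was fitted with its own wildtype, and the difference of effects in 1 fit with 4 group means. Tests were two-sided, with Benjamini-Hochberg adjustment over all 20380 and a call at an adjusted p under 0.05. The number of arrays limits the precision. The series text names biological replicates without saying which animals gave each sample, so p-values measure the spread between these samples.

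The members and gene lists were chosen with earlier results of these data known. Beyond the members, the text names up to 4 genes per list, those with the smallest p in the Brg1 comparison, and for each called member the 3 genes nearest in profile. Each listed gene was taken by its probe set of highest mean. Code was tested on simulated data. Alternatives covered normalisation, an intensity offset, a dim filter, 1 probe set per gene, all probe sets, moderation, array weights, 1 fit for all arrays, a replicate block, averaging the similar pair, and leaving out each array. Promoter windows come from RefSeq (GRCm38.p6). Same-numbered samples had correlations of deviations of 0.0661, 0.0833 and 0.133 in the Brg1 experiment and -0.23 to 0.0566 in the Snf2h experiment, so the numbers were not taken as pairs.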

Additional observations from a re-analysis of the deposited data

Results flagged for a closer look

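Il1b stood apart in Snf2h wildtype replicate 2, at a log2 level of 3.86 against 2.97 for the nearest array, a gap of 0.908 of the group's range. Il1r2 stood apart in Snf2h cKO replicate 2, at 4.07 against 3.48 for the nearest array, a gap of 0.831 of the range. The test for an array apart was run on 22 groups of 4 arrays, and chance alone marks about 1 in 20 groups. The Brg1 change exceeded the Snf2h change by 6.49 on the log2 scale for Il1b and by 5.51, 3.05 and 2.16 for the Il1rn probe sets 1451798_at, 1425663_at and 1423017_a_at, each by the limma test of the difference itself.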

How the results depend on the processing

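The number of member probe sets called higher in Brg1 cKO eyes was 3, and it was 0 with 32 added to the intensities, 0 with the dim filter, which left 1 member probe set to test, 5 in 1 fit over all arrays and 1 to 4 when each array was left out. Member probe sets called lower in Snf2h cKO eyes numbered 0, and 1 with array weights. For the difference of effects, 4 were called higher, against 2 with the offset, 0 with the dim filter, 2 with 1 probe set per gene, 2 with Snf2h cKO replicates 1 and 2 averaged and 2 to 6 when each array was left out; it was 2 without Brg1 wildtype replicate 3, Snf2h cKO replicate 1 or Snf2h cKO replicate 2. The fit with the replicate number as a block called 1 member probe set higher in Brg1 cKO eyes, Il1b, 0 lower in Snf2h cKO eyes and 3 higher in the difference, and lost the Il1rn calls at 1451798_at (limma adjusted p = 0.054) and 1425663_at (0.0868) in Brg1 cKO eyes and at 1423017_a_at (0.0887) in the difference; the numbers were not shown to pair the samples. Signs turned in the Snf2h comparison for Il1b (0.1706 and 0.1624 by the quantile normalisations, -0.1035 to 0.2203 without single arrays), for Il1rn 1425663_at (-0.0712 with array weights, -0.0467 to 0.3468 without single arrays) and for Il1r2 (-0.1264 to 0.3387 without single arrays), and in the Brg1 comparison for Il1rap 1421843_at (-0.0762 to 0.1724). Calls over all probe sets in the Brg1 comparison were 127, and 16 with the offset, 15 with the dim filter, 280 in 1 fit, 50 with the block and 25 to 199 without single arrays. In the Snf2h comparison they were 0, and 3 with the offset, 5 with the dim filter, 561 with array weights and 0 to 184 without single arrays. In the difference they were 140, and 47, 7, 81 with the block, 82 with the averaged pair and 66 to 290 without single arrays. Called processing genes were 0 with the offset, the dim filter or the block, and called induced genes 0 with the dim filter and 11 in 1 fit. The cause of these shifts was not tested. The arrays give no detection calls, so the low wildtype levels of Il1b, Il1rn and Il1r2, and those of Il1r1 and Il1rap in the Snf2h experiment, limit how exactly their fold changes are known. The same holds for Cxcl2, Cxcl5, Saa3, Mefv and Casp1 in the Brg1 experiment.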
